A study of Homo sapiens with 6 samples.

Results

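The mitotic kinases examined here were AURKA, AURKB, PLK1, PLK4, BUB1, BUB1B, TTK, NEK2, MELK and PBK, 10 of the 30618 genes in the count table. They were chosen by gene symbol and function, with earlier results of these data known, and each had 1 row in the counts and 1 in the FPKM values. All 10 passed the filter on low counts that left 16749 genes for testing. The cells were of ARPE-19, a long-established line from human retinal pigment epithelium, which the study grew in 50 mM glucose as a model of diabetic retinopathy. Both groups were in 50 mM glucose and both were transfected with an siRNA, a negative control sequence in the NC group (3 libraries) or a sequence against EIF1 in the siEIF1 group (3 libraries). EIF1 is a translation initiation factor that helps the ribosome select the start codon. The model is a single cell line with a transient knockdown, no library from cells in normal glucose was analysed here, and the 3 replicates of a group were stated to be independent biological ones, without detail of what was kept separate. The time between transfection and RNA extraction for sequencing was not given in the sources used here.

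Mitotic kinases are protein kinases that drive and time cell division. Aurora and Polo-like kinases build the spindle and duplicate and mature the centrosomes, while the kinases of the spindle assembly checkpoint hold back chromosome separation until every chromosome is attached. Most of them are made in G2 and M phase and are then degraded, so their mRNA is abundant in dividing cells and scarce in resting cells. Their promoters are commonly silenced in resting cells by the DREAM complex, which binds the CHR element, and are activated in dividing cells through MYBL2 and FOXM1. Retinal pigment epithelium in the adult eye rarely divides, whereas the ARPE-19 line divides in culture.

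The promoters of these kinases are shown first and were searched for known cell cycle elements. A promoter of RefSeq (GRCh38.p14, 250 bases before to 50 bases after an annotated start) was found for 7 of the 10 kinases, with 10 starts in all. AURKA, TTK and PBK had no entry. The letters TTTGAA or TTCGAA of the CHR element, on either strand, were in a promoter of 4 of the 7 kinases (BUB1, BUB1B, PLK1 and PLK4), compared with 19.5% of the 27305 genes with a promoter and 16.4% of all 35116 promoters. The CCAAT box, the site of the factor NF-Y, was present on either strand in 5 of the 7 (AURKB, BUB1, NEK2, PLK1 and PLK4), compared with 39.7% of genes and 34.6% of promoters. No CHR match overlapped a CCAAT match in these promoters. BUB1 and PLK1 held both elements in 1 promoter, as did 7.85% of genes. In PLK1 both lay before the start, which holds for 6.38% of genes, and in BUB1 the CHR letters (TTCGAA) lay from base 2 to base 7 after the start. The CHR letters of PLK4 were on the opposite strand, from base 39 to base 44 after 1 of its 3 starts, and its CCAAT box belonged to another of them. Neither element was found in the single promoter of MELK. These are matches of letters, and binding was not measured.

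The 100 bases before the start are given 5′ to 3′ on the strand of the gene for the 4 kinases with a single annotated start and a match in that window. Capitals mark CCAAT (or ATTGG, the same box on the opposite strand) and TTTGAA. The windows are chr16:23678789-23678888 on the forward strand for PLK1, chr15:40160969-40161068 on the forward strand for BUB1B, chr2:110678064-110678163 on the reverse strand for BUB1 and chr1:211675622-211675721 on the reverse strand for NEK2.
PLK1: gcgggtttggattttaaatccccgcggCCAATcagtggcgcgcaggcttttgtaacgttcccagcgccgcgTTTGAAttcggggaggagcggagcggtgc
BUB1B: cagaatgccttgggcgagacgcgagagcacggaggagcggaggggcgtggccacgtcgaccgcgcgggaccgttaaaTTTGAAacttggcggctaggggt
BUB1: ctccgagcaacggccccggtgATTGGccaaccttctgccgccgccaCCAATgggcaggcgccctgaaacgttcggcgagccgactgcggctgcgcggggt
NEK2: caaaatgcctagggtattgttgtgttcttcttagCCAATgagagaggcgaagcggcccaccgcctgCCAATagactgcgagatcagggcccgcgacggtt
In PLK1 the CCAAT box began 73 bases and TTTGAA 29 bases before the start. BUB1B had TTTGAA at 23 bases and no CCAAT box, and NEK2 had CCAAT boxes at 66 and 34 bases and no CHR letters.

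**Figure D1:**
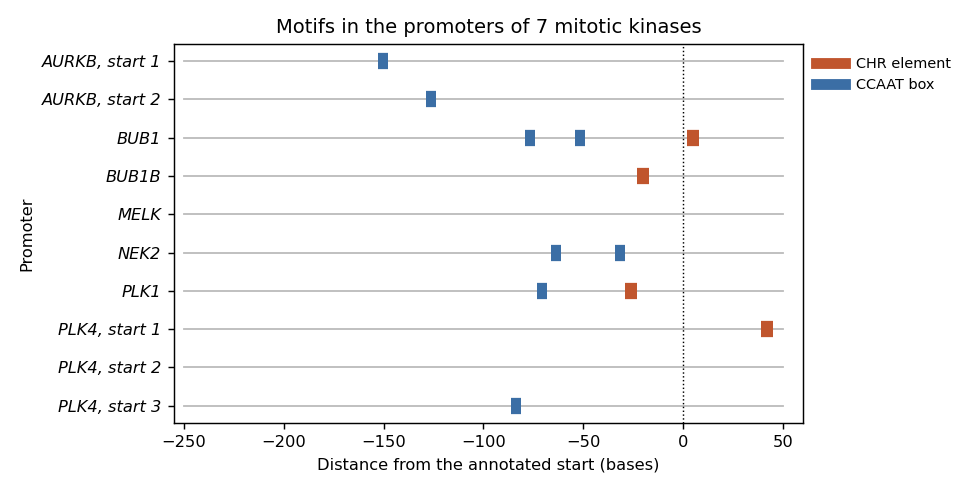
Matches to the CHR element (orange) and the CCAAT box (blue) on either strand of 10 RefSeq promoters of 7 mitotic kinases, by distance in bases from the annotated start (dotted line). CHR matches lie in 4 promoters, 2 of them before the start (PLK1 and BUB1B), and CCAAT boxes lie in 6 promoters, while MELK has neither.

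The libraries held 26499929 to 31431479 counts. EIF1 was checked first. Its FPKM was 294.35, 281.08 and 281.28 in the NC group and 24.28, 22.68 and 23.5 in the siEIF1 group, or 8.22% of the NC mean, so the EIF1 level of each library matched its label. Among 13 markers of retinal pigment epithelium, OTX2 (FPKM 17.76 in NC and 18.72 in siEIF1) and BEST1 (65.97 and 51.96) were expressed. MITF (5.84 in NC), SERPINF1 (1.7) and the keratins KRT18 (326.5) and KRT8 (113.0) were expressed too. Low in NC were MERTK (0.35), PMEL (0.27), RLBP1 (0.237) and TYRP1 (0.063). These 8 were named after their values were seen. TYR had at most 2 counts in any library, and RPE65 and TTR had no row in the counts. Overlapping genes were examined for the mitotic kinases only, so the level of BEST1 could include reads of another gene. Of markers of other retinal cells, PECAM1 and CDH5 of vessels had at most 2 counts, while the pericyte marker PDGFRB had an FPKM of 8.15 in NC and 12.2 in siEIF1.

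All 10 mitotic kinases were lower in the siEIF1 group, with log2 fold changes from -2.31 (PBK) to -0.67 (AURKB) and a median of -1.17, beside a median of 0.0033 over all tested genes. By the quasi-likelihood test of edgeR, each had a Benjamini-Hochberg adjusted p under 0.05, as did 1744 tested genes (10.4%) in the lower direction. A gene was called when, in addition, its fold change was above 2 or below 0.5, and 7 of the 10 were called lower, against 219 (1.31%) of all tested genes. None of the 10 was higher, by the adjusted p alone (10.2% of tested genes), with the fold limit (0.4%) or at an unadjusted p under 0.05, and DESeq2 and limma also called 0 of them higher. In all 10, the highest siEIF1 value was below the lowest NC value, which held for 18.9% of the tested genes in CPM (counts scaled for library size). The FPKM values (fragments scaled for gene length and library size) of the 10 summed to 17.97, 17.69 and 16.02 in NC and to 7.3, 6.42 and 6.9 in siEIF1, which is 39.9% of the NC mean. In bulk RNA, fewer cells in G2 and M phase and less mRNA in each such cell cannot be told apart. Tested against the fold limit itself with edgeR's glmTreat, 1 of the 10 was called, PBK, and limma on log2(FPKM + 1) also called PBK alone.

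The 10 kinases had 75.33 to 266.7 counts per library on average, and the standard errors (SE) of their log2 fold changes ran from 0.12 to 0.20, compared with 0.055 for EIF1. Below, FPKM values are levels per length, and log2 fold changes are differences of siEIF1 from NC fitted on the counts. The gene lengths behind the FPKM were not given in the sources used here, and the order of levels between genes depends on them. The two-sided exact permutation test on the 3 against 3 FPKM values gave p = 0.1 for each of the 10, the smallest p this design allows.

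**Figure D2:**
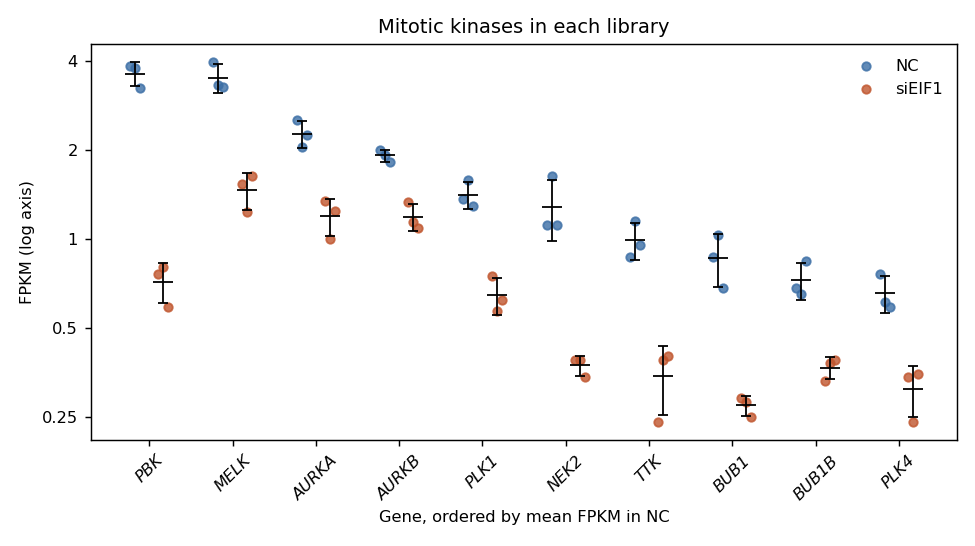
FPKM of the 10 mitotic kinases in each library on a log axis, with NC in blue and siEIF1 in orange, 1 point per library, and bars for the mean ± SD (n = 3). For each kinase the 3 siEIF1 points lie below the 3 NC points, and PBK has the widest gap, from a mean of 3.62 to 0.717.

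The Aurora kinases had the smallest estimated decreases. AURKA, which matures centrosomes and assembles the spindle poles, lies on chromosome 20, reverse strand, from 56369389 to 56392337 (GRCh38, GENCODE release 44, 9 exons in the canonical transcript). Its FPKM was 2.52, 2.04 and 2.24 in NC and 1.34, 1.0 and 1.24 in siEIF1. The means were 2.27 ± 0.241 and 1.19 ± 0.175 (SD, n = 3), so 52.6% of the NC level was left. The groups did not overlap, and NC replicate 2 and siEIF1 replicate 2 were the lowest of their groups. AURKA had a log2 fold change of -0.90 (SE 0.13, edgeR adjusted p = 0.000317), a 1.87-fold decrease that did not reach the fold limit. AURKB, the kinase of the chromosomal passenger complex that corrects faulty attachments and drives cytokinesis, lies on chromosome 17, reverse strand, from 8204733 to 8210600 (9 exons). Its FPKM was 2.0, 1.92 and 1.82 in NC and 1.33, 1.14 and 1.09 in siEIF1. This was the tightest NC group of the 10 (SD 0.0902) and the smallest decrease, to 62.0%. For AURKB the log2 fold change was -0.67 (SE 0.14, edgeR adjusted p = 0.00334), also short of the fold limit, and it ranked 506 from the lowest of the 16749 genes. AURKA, AURKB and NEK2 have processed pseudogene copies in the table, AURKAP1, AURKBP1 and NEK2P4, and none of these had more than 2 counts in a library.

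The Polo-like kinases were both called, close to the fold limit. PLK1, which acts from mitotic entry to cytokinesis, lies on chromosome 16, forward strand, from 23677656 to 23690367 (10 exons). Its FPKM was 1.36, 1.58 and 1.29 in NC (mean 1.41 ± 0.151) and 0.75, 0.57 and 0.62 in siEIF1 (mean 0.647 ± 0.0929). The highest siEIF1 library stood well below the lowest NC library. On the counts, PLK1 had a log2 fold change of -1.10 (SE 0.13, edgeR adjusted p = 8.75e-05, 2.14-fold lower). A lncRNA gene that overlaps PLK1 on the opposite strand had at most 4 counts. PLK4, which starts centriole duplication, lies on chromosome 4, forward strand, from 127880893 to 127899224 (16 exons). It had the lowest mean FPKM of the 10 in NC, with 0.76, 0.61 and 0.59 in NC and 0.34, 0.24 and 0.35 in siEIF1. NC replicate 1 and siEIF1 replicate 2 stood apart from the other libraries of their groups, on the sides that widen the difference. PLK4 had a log2 fold change of -1.04 (SE 0.19, edgeR adjusted p = 0.00169, 2.06-fold lower). It fell short of the fold limit without NC replicate 1 (-0.91) and without siEIF1 replicate 2 (-0.90).

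Of the 3 kinases of the spindle assembly checkpoint, BUB1 and TTK were called and BUB1B was not. BUB1, which recruits checkpoint proteins to kinetochores and marks the centromere, lies on chromosome 2, reverse strand, from 110637528 to 110678063 (25 exons). Its FPKM was 0.87, 1.03 and 0.68 in NC and 0.29, 0.28 and 0.25 in siEIF1. The NC libraries were spread (0.860 ± 0.175) while the siEIF1 libraries lay close together (0.273 ± 0.0208), at 31.8% of the NC mean. This gave BUB1 a log2 fold change of -1.63 (SE 0.17, edgeR adjusted p = 2.87e-05, 3.1-fold lower). BUB1B encodes BUBR1, a subunit of the mitotic checkpoint complex that inhibits CDC20, and is regarded as a pseudokinase in humans. It lies on chromosome 15, forward strand, from 40161023 to 40221123 (23 exons). The FPKM of BUB1B was 0.68, 0.65 and 0.84 in NC and 0.33, 0.38 and 0.39 in siEIF1, or 50.7% of the NC mean. BUB1B had a log2 fold change of -0.95 (SE 0.17, edgeR adjusted p = 0.00126), just short of the fold limit, and it passed the limit without NC replicate 2 (-1.03) and, barely, without siEIF1 replicate 2 (-1.0). BUB1B shares genomic sequence on the same strand with PAK6, which had 163, 204 and 182 counts in NC and 214, 207 and 215 in siEIF1. Reads of the read-through gene BUB1B-PAK6 were at most 1 per library. TTK, also named MPS1, starts the checkpoint signal at unattached kinetochores and lies on chromosome 6, forward strand, from 80003887 to 80042527 (22 exons). Its FPKM was 0.87, 1.15 and 0.95 in NC and 0.24, 0.39 and 0.4 in siEIF1. The siEIF1 replicate 1 value was the lowest, and the group mean was 34.7% of NC. For TTK the log2 fold change was -1.5 (SE 0.19, edgeR adjusted p = 0.000119, 2.82-fold lower).

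NEK2, which separates the duplicated centrosomes at mitotic entry, was the second most reduced of the 10. It lies on chromosome 1, reverse strand, from 211658657 to 211675630 (8 exons). The FPKM of NEK2 was 1.11, 1.63 and 1.11 in NC (mean 1.28 ± 0.300) and 0.39, 0.39 and 0.34 in siEIF1 (mean 0.373 ± 0.0289). NC replicate 2 was high, and the other NC libraries had equal values that were still far above every siEIF1 library. The log2 fold change of NEK2 was -1.77 (SE 0.20, edgeR adjusted p = 4.32e-05, 3.41-fold lower), and it stayed between -1.88 and -1.56 with any 1 library left out.

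MELK and PBK, kinases used as markers of dividing and tumour cells, had the highest mean FPKM in NC. MELK lies on chromosome 9, forward strand, from 36572862 to 36677683 (18 exons) and had an FPKM of 3.96, 3.3 and 3.26 in NC and of 1.53, 1.23 and 1.63 in siEIF1. The siEIF1 mean was 41.7% of the NC mean. The log2 fold change of MELK was -1.24 (SE 0.12, edgeR adjusted p = 9.05e-06, 2.36-fold lower), with the smallest standard error of the 10. PBK, also named TOPK, is a kinase that is active in mitosis. It lies on chromosome 8, reverse strand, from 27809624 to 27838082 (8 exons). The FPKM of PBK was 3.84, 3.78 and 3.24 in NC (mean 3.62 ± 0.330) and 0.76, 0.8 and 0.59 in siEIF1 (mean 0.717 ± 0.112), so 19.8% was left. The log2 fold change of PBK was -2.31 (SE 0.15, edgeR adjusted p = 5.56e-07, 4.96-fold lower), rank 7 from the lowest of all tested genes. ESCO2, a cohesin acetyltransferase gene, overlaps PBK on the opposite strand and had 39, 56 and 55 counts in NC and 19, 16 and 22 in siEIF1, against 268, 285 and 237 and 63, 63 and 46 for PBK. The strand setting of the counting was not given in the sources used here, so reads of overlapping genes could be shared.

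**Figure D3:**
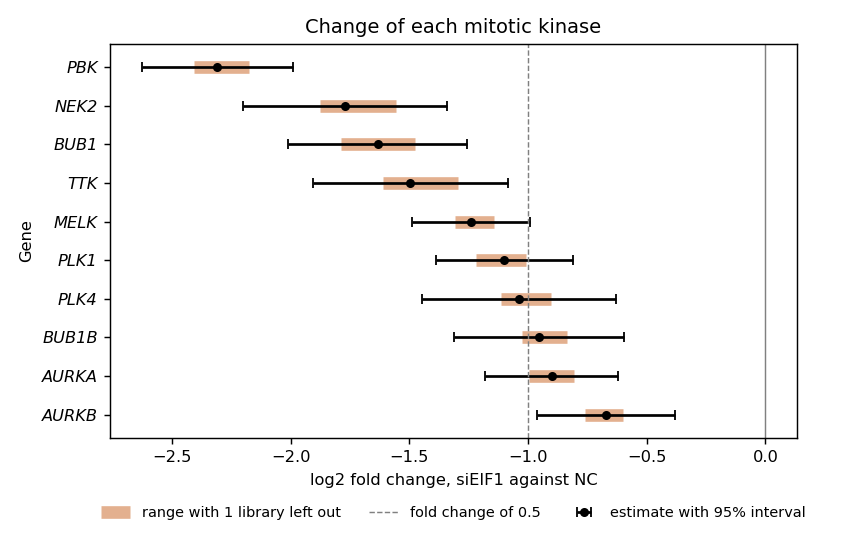
Fitted log2 fold change of siEIF1 against NC for each mitotic kinase (points) with its 95% interval (lines) and the range with any 1 library left out (orange bands). The dashed line is a fold change of 0.5. All intervals lie below 0, and those of PBK, NEK2, BUB1 and TTK lie wholly beyond the dashed line, while that of AURKB (-0.96 to -0.38) does not reach it.

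The size of the decrease differed among the kinases. Of the 45 pairs of the 10, the 95% intervals of the log2 fold change did not overlap in 14, and these intervals were not adjusted over the pairs. PBK (interval -2.63 to -1.99) was apart from 7 of the other kinases and AURKB (-0.96 to -0.38) from 5, while PLK1 (-1.39 to -0.81) and PLK4 (-1.45 to -0.63) were each apart from 1. Within families the ratio of 2 related kinases was compared on the counts of the same library, which removes the library size. The log2 ratio of BUB1 to BUB1B was 0.87, 1.17 and 0.18 in NC and 0.30, 0.045 and -0.12 in siEIF1, and the groups overlapped. Its mean was lower by 0.67 in siEIF1 (two-sided exact permutation test, p = 0.2, adjusted p = 0.3 over 3 pairs, where p = 0.1 is the smallest possible). For AURKA to AURKB the ratio was 0.72, 0.47 and 0.68 in NC and 0.41, 0.20 and 0.57 in siEIF1 (exact permutation test, p = 0.2, adjusted p = 0.3). PLK1 to PLK4 had a mean log2 ratio of 1.20 ± 0.27 in NC and 1.15 ± 0.21 in siEIF1 (SD, n = 3, exact permutation test, p = 0.7, adjusted p = 0.7). The groups thus overlapped in all 3 family ratios, and no difference between the family members was shown.

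The order of the FPKM levels, which depends on the gene lengths used, changed with the unequal decreases. In NC, PBK (mean FPKM 3.62) and MELK (3.51) overlapped at the top, followed by AURKA (2.27) and AURKB (1.91), each apart from its neighbours. From PLK1 (1.41) through NEK2, TTK, BUB1 and BUB1B down to PLK4 (0.653), each kinase overlapped the next. In siEIF1, MELK (1.46), AURKA (1.19) and AURKB (1.19) led and overlapped. PBK (0.717) and PLK1 (0.647) overlapped each other below them, and the remaining 5 from NEK2 (0.373) to BUB1 (0.273) each overlapped the next. By mean FPKM, PBK thus went from the first place, where it overlapped MELK, to the fourth. BUB1 went from the eighth to the last, but its libraries overlapped those of its neighbours in both groups, so its change of place was not resolved.

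By library, the CPM of each kinase was expressed as a percent of its NC mean. The median over the 10 kinases was 104%, 103% and 91.2% in NC replicates 1 to 3 and 45%, 39.8% and 45% in siEIF1 replicates 1 to 3. NC replicate 3 held the lowest NC value for 7 of the 10. Single values ran from 77.4% (BUB1, replicate 3) to 128% (NEK2, replicate 2) in NC and from 16.2% (PBK, replicate 3) to 70.0% (AURKB, replicate 1) in siEIF1. No siEIF1 value of any of the 10 reached the lowest NC value of all of them.

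**Figure D4:**
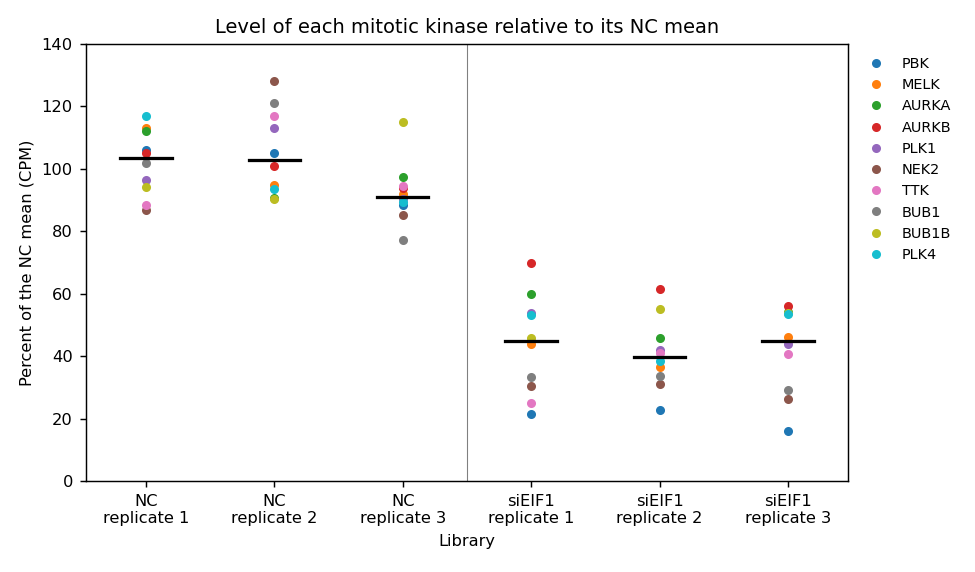
CPM of each mitotic kinase as a percent of its NC mean in the 6 libraries, 1 coloured point per kinase, with the median over the 10 kinases as a black line. The medians are 104%, 103% and 91.2% in NC and 45%, 39.8% and 45% in siEIF1, and PBK is the lowest point in each siEIF1 library.

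The activators and scaffolds that work with these kinases were mostly lower as well. Of 12 kinase partners, 10 had an adjusted p under 0.05 and a lower level (edgeR), 6 of them were called, none was higher and 2 did not pass, with a median log2 fold change of -1.05. Over all tested genes, 10.4% were lower and 10.2% higher by the adjusted p, and 1.31% were called lower. With so few genes, none higher is near its share and is no result about the partners. CENPU, a kinetochore protein that docks PLK1, fell by 1.60 on the log2 scale (FPKM 3.42 in NC and 1.11 in siEIF1). PRC1, a bundler of the central spindle that also docks PLK1, fell by 1.24. TPX2, the activator of AURKA, fell by 1.14. Limma on log2(FPKM + 1) called 1 of the 12 lower. Also called, and named after their values were seen, were CDCA8 (-1.48) and BIRC5 (-1.42) of the chromosomal passenger complex and STIL (-1.39), the centriole scaffold bound by PLK4. INCENP, the scaffold that activates AURKB in that same complex, had a log2 fold change of -0.16 (SE 0.17, adjusted p = 0.551), with 95, 100 and 121 counts in NC and 95, 86 and 124 in siEIF1. The other partner that did not pass was CEP192, a centrosome scaffold of AURKA and PLK4, at -0.32 (edgeR adjusted p = 0.0613). Both were singled out after their values were seen. Within the passenger complex, AURKB, BIRC5 and CDCA8 were thus lower without overlap, as were 18.9% of the tested genes in CPM. INCENP overlapped between the groups, and its difference from the other genes of the complex was not tested.

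Among 11 partners in the spindle checkpoint, 7 were lower at an adjusted p under 0.05 (edgeR), 5 of these were called, 1 was higher and 3 did not pass, with a median log2 fold change of -0.69. Limma on log2(FPKM + 1) called 0 of them (4 with a pseudocount of 0.1). For comparison, edgeR found 10.4% of all tested genes lower and 10.2% higher by the adjusted p, and called 1.31% lower. MAD2L1, the checkpoint protein that closes on CDC20, fell by 1.27 (FPKM 3.15 in NC and 1.29 in siEIF1). TRIP13, the ATPase that recycles it, fell by 1.26, and KNTC1, the ROD subunit of the kinetochore RZZ complex, fell by 1.14. Also called, and named after their values were seen, were KNL1 (-1.35), the kinetochore scaffold of BUB1 and BUB1B, and CDC20 (-1.17), the target of the checkpoint. KNL1 had only 11 to 45 counts per library. ZW10, another subunit of the RZZ complex, rose by 0.58, and its counts were 360, 347 and 359 in NC and 625, 545 and 560 in siEIF1. BUB3, the binding partner of BUB1 and BUB1B, fell by 0.40 and was far from the fold limit, and MAD1L1, which holds MAD2L1 at kinetochores, had a log2 fold change of 0.012 (edgeR adjusted p = 0.937). ZW10, BUB3 and MAD1L1 were singled out after their values were seen.

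Of 10 other kinases of mitotic entry, 6 were lower at an adjusted p under 0.05 (edgeR), 4 of these were called, 1 was higher and 3 did not pass, with a median log2 fold change of -0.56. Among all tested genes the shares were 10.4% lower and 10.2% higher by the adjusted p, with 1.31% called lower. CDK1, the kinase that drives mitotic entry, fell by 1.66 (FPKM 3.67 in NC and 1.15 in siEIF1). PKMYT1, which inhibits CDK1, fell by 1.23, and CIT, the citron kinase of cytokinesis, fell by 1.39. HASPIN, which marks histone H3 for AURKB, fell by 1.35, with 12 to 40 counts per library. The kinase that was higher was STK10, at 0.22 (edgeR adjusted p = 0.0468). WEE1, the other inhibitor of CDK1, had a log2 fold change of -0.15 (edgeR adjusted p = 0.0831). STK10 and WEE1 were singled out after their values were seen. Limma on log2(FPKM + 1) called 1 of these kinases and limma on log2(FPKM + 0.1) called 2. Of 14 other Aurora, Polo-like and NEK kinases, 12 could be tested, 0 were called in either direction by edgeR, 2 were lower at an adjusted p under 0.05 (NEK4 at -0.43 and PLK3 at -0.19), 1 was higher (PLK2, a stress-induced relative of PLK1, at 0.18) and 9 did not pass, with a median of -0.034. At an unadjusted p under 0.05, 3 were lower and 2 higher, and DESeq2 and limma on either FPKM scale also called 0. With 1.31% of all tested genes called lower, 0.4% called higher and 10.4% lower by the adjusted p alone, these few counts were near those shares. AURKC, the Aurora kinase of germ cells, had 5 to 14 counts and was not tested.

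**Figure D5:**
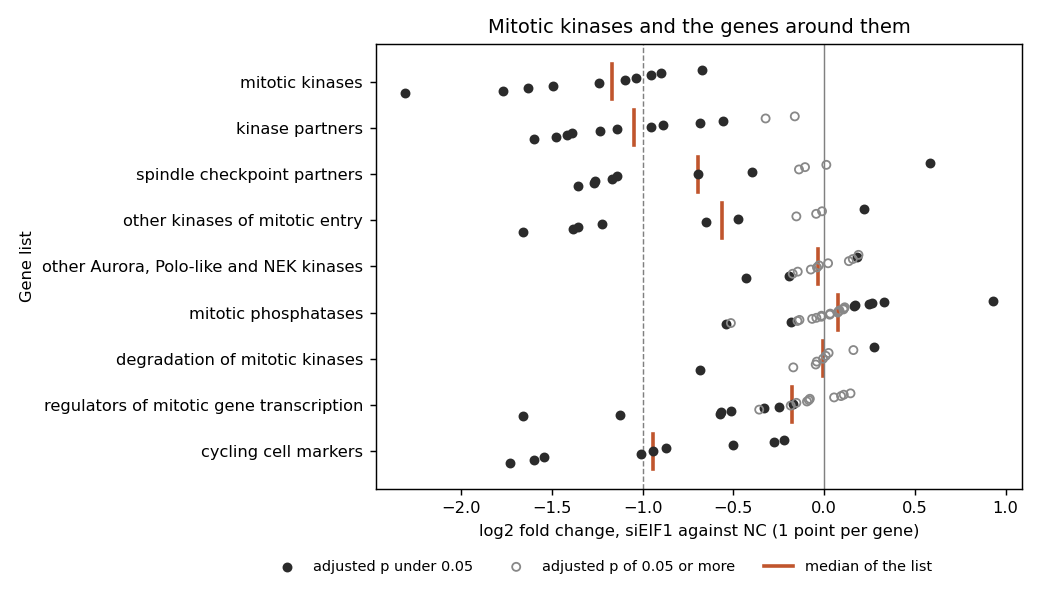
Fitted log2 fold change of siEIF1 against NC for the mitotic kinases and 8 lists of genes around them, 1 point per gene, filled where the adjusted p was under 0.05, with the median of each list as an orange line and the dashed line at a fold change of 0.5. The medians are -1.17 for the mitotic kinases, -1.05 for their partners and -0.94 for cycling cell markers, against -0.034 for the other Aurora, Polo-like and NEK kinases and 0.075 for the phosphatases and their regulators.

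Genes of the enzymes that oppose or remove the kinases, and of regulators of these enzymes, were counted in the same way. Of 24 genes of mitotic phosphatases and their regulators, inhibitors included, 23 could be tested and 0 were called by edgeR. At an adjusted p under 0.05, 6 were higher and 2 lower, beside 10.2% and 10.4% of all tested genes, and 15 did not pass (median 0.075). At an unadjusted p under 0.05, 7 were higher and 4 lower, and DESeq2 and limma also called 0. PPP2R1A, the scaffold subunit of PP2A, rose by 0.33 (FPKM 26.41 in NC and 32.73 in siEIF1), PPP2R2B, a regulatory subunit, rose by 0.93 from a low level (0.217 and 0.403), and ARPP19, an inhibitor of PP2A, fell by 0.54. The list for degradation of mitotic kinases held 9 genes, of ubiquitin ligases and of the inhibitor FBXO5. Of these 9, 0 were called by edgeR, DESeq2 or limma, 7 did not pass, and 2 were lower and 2 higher at an unadjusted p under 0.05. In lists of this size, 0 calls is near the shares of all tested genes (1.31% lower and 0.4% higher) and is no result about these genes. FBXO5, the inhibitor of the ligase APC/C, fell by 0.68, CHFR rose by 0.28, and FBXW11 had a log2 fold change of -0.17 (edgeR adjusted p = 0.0523).

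Among 18 regulators of mitotic gene transcription, 8 were lower at an adjusted p under 0.05 (edgeR), 2 were called, none was higher and 10 did not pass, with a median log2 fold change of -0.18. Limma on log2(FPKM + 1) called 1 of them. Beside these counts, 10.4% of all tested genes were lower and 10.2% higher by the adjusted p, and 1.31% were called lower. None higher in a list of this size is near its share and is no result about these genes. The 2 called by edgeR were the activators named above. MYBL2 had counts of 261, 286 and 237 in NC and 102, 74 and 92 in siEIF1, and fell by 1.66. FOXM1 had 572, 649 and 645 in NC and 286, 350 and 287 in siEIF1 and fell by 1.12. RBL1, a pocket protein of the DREAM complex, fell by 0.51. CDKN1A, the p21 inhibitor of cyclin-dependent kinases, had a log2 fold change of -0.15 (edgeR adjusted p = 0.0747) and was singled out after its value was seen. All 3 subunits of NF-Y, which binds the CCAAT box, did not pass the test.

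Markers of cycling cells were lower together with the mitotic kinases. All 9 were lower at an adjusted p under 0.05 (edgeR), 4 were called (1 with limma on log2(FPKM + 1)), and the median log2 fold change was -0.94. Over all tested genes, 10.4% were lower by the adjusted p and 1.31% were called lower. RRM2, which makes deoxynucleotides, fell by 1.73, and TOP2A, a topoisomerase of G2 and M phase, fell by 1.54. MCM2, a subunit of the replicative helicase, fell by 0.87. The FPKM of the 9 markers summed to 118.4 to 124.1 in NC and to 88.52 to 93.24 in siEIF1. Most of this sum was PCNA (67.04 in NC and 54.55 in siEIF1) and TYMS (26.48 and 22.37). These fell least of the 9, by 0.28 and 0.22, and were singled out after their values were seen. The part of the share of cycling cells in the lower level of the mitotic kinases was not tested. Of 9 tested markers of retinal pigment epithelium, 3 were higher at an adjusted p under 0.05 and none was lower (edgeR), and 1 was called higher. The shares of all tested genes were 10.2% higher and 10.4% lower by the adjusted p, with 0.4% called higher. In a list of this size, none lower is near its share and is no result about these markers. RLBP1, a retinoid-binding protein, rose by 1.55 from 11 to 17 counts in NC to 42 to 49 in siEIF1, and the epithelial keratins KRT18 and KRT8 rose by 0.25 and 0.24. At an unadjusted p under 0.05, 3 were higher and 1 was lower, BEST1, a chloride channel of this epithelium, at -0.32 (edgeR adjusted p = 0.106), which was singled out after its value was seen. The summed FPKM of the retinal pigment epithelium markers was 523.1 to 541.9 in NC and 565.9 to 611.8 in siEIF1. Without both keratins it was 87.44 to 97.1 in NC and 66.47 to 90.05 in siEIF1, so the higher sum lay in the keratins. Most of what remained was BEST1 (mean FPKM 65.97 in NC and 51.96 in siEIF1), whose overlap with other genes was not examined. Of 3 tested markers of other retinal cells, PDGFRB rose by 0.60, while CD68 (0.025) and RGS5 (-0.29) did not pass, and the list's summed FPKM was 7.71 to 10.25 in NC and 12.17 to 14.49 in siEIF1. Nearly all of that sum was PDGFRB (mean FPKM 8.15 in NC and 12.2 in siEIF1). The part of these markers in the result was not tested.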

How the data were processed

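RNA-seq counts and FPKM per gene were analysed for ARPE-19 cells, 3 NC and 3 siEIF1 libraries, grouped by sample title. The authors trimmed reads with FASTX-Toolkit, aligned them to GRCh38 with HISAT2 and deposited counts of uniquely mapped reads per gene without normalization. The deposited FPKM values were scaled by the authors for gene length and mapped fragments and are rounded. The counting program, strand setting and annotation release were not given in the sources used here. The counts were fitted with edgeR 4.0.16 in R 4.3.3 (TMM, filterByExpr, quasi-likelihood test, Benjamini-Hochberg adjustment over all 16749 genes), with no replicate block, and a call required both the adjusted p (under 0.05) and the fold limits (2 and 0.5). DESeq2 1.42.0, which the study used, limma 3.58.1 on FPKM, other normalizations, filters and leaving out each library were alternatives. The scripts were tested on simulated data. Exact permutation tests used scipy 1.17.1.

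The members and gene lists were chosen with earlier results of these data known. Named are EIF1, the 10 kinases, up to 3 tested genes of each list with the smallest p-values, every called gene of both lists of other kinases, and genes that overlap or copy a kinase. Other names were added after their values were seen. Between libraries of 1 group the chi-square divided by its degrees of freedom was 2.87 to 12.95, so no library was a resequencing of another. This measure cannot tell separate cultures from separate library preparations of 1 culture. Protein sequences were not used here. A total of 0 data columns were left unmatched.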

Additional observations from a re-analysis of the deposited data

How the results depend on the processing

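All 150 values of the 10 mitotic kinases under 15 alternatives each (RLE and upper-quartile normalization, no count filter, a minimum of 10 counts, limma on FPKM, DESeq2, the replicate block and each library left out) were lower in siEIF1 with an adjusted p under 0.05, so none reversed. With limma on log2(FPKM + 1), with or without its filter, 1 mitotic kinase and 20 genes in all were called, 3 genes of the 7 lists around the kinases other than markers were called lower (17 with edgeR), and the median of the kinases was -0.56. This scale understates changes of genes with low FPKM, and with a pseudocount of 0.1 the number of kinases called was 6. With glmTreat, 1 kinase and 39 genes were called, where edgeR with the fold limit called 286 genes. Leaving out each library gave 6 to 8 kinases called, a median of -1.25 to -1.09, 235 to 327 genes, 17 to 18 genes of those 7 lists and an EIF1 log2 fold change of -3.61 to -3.56. Of the 7 kinases with a mean count of at least 100, a limit chosen after seeing the data, 5 were called. With TTTGAA alone, 3 of 7 kinases held the CHR element. Same-numbered libraries had correlations of 0.15, 0.095 and 0.13, not all above 0.1, so the numbers were not taken to pair the libraries. Each siEIF1 library correlated best with its own number. The replicate block called 7 kinases (10 at adjusted p) and 298 genes. The comparison of catalytic motifs listed in the plan was not run. Depth limits the precision for these kinases, which had 38 to 397 counts per library.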
